A study of Mus musculus with 23 samples.

Results

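The regions described here are stretches of the mouse genome bound by the nuclear receptor NR5A2 in which the nearest protein-coding gene works in DNA replication or DNA repair. A region was taken where the nearest protein-coding gene span in a RefSeq gene table belonged to a list of 56 genes and lay within 50 kb of the region's midpoint. The list covers origin licensing, the replicative helicase, DNA synthesis, checkpoint signalling, homologous recombination, the Fanconi anaemia pathway and mismatch repair or end joining. All 56 genes were matched by symbol, and 56 of the 16958 regions of the table met the rule. They lay at 32 of the genes. The remaining 24 genes had no bound region by this rule, and they were Orc1, Orc4, Orc5, Cdc6, Cdt1, Mcm2, Mcm3, Mcm4, Mcm7, Pcna, Pold1, Rpa3, Atr, Atrip, Atm, Chek1, Trp53, Brca2, Rad51d, Rad50, Mcm8, Fanca, Xrcc5 and Xrcc6. The nearest gene is a statement of position, and no expression of these genes was measured here.

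Mouse embryos at the 8-cell stage were profiled by ATAC-seq, an assay that uses a transposase to cut and tag open chromatin. The maternal-zygotic series holds 13 single embryos labelled mz_NrKO and 8 single embryos labelled mz_NrHet, all collected on 1 date and processed straight from the animal. The inducible series holds 1 pool of embryos labelled i_NrKO and 1 pool labelled i_Nrpp, both dissected as early 2-cell embryos 30 h after hCG injection and cultured for 45 h. The i_NrKO pool was treated with 750 nM 4-hydroxytamoxifen for the first 24 h, and the i_Nrpp pool was left untreated. The comparison embryos of the maternal-zygotic series carry a heterozygous Nr5a2 genotype and are not wild type. What Nrpp stands for, what drives the deletion and how many embryos were pooled are not given in the sources used here. No tamoxifen-treated pool that kept Nr5a2 was analysed here, so the drug and the deletion cannot be told apart. The deposited table gives 1 merged value per group and region, in RPKM (reads per kilobase, normalised to sequencing depth), so the spread between embryos was not measured and all intervals and tests cover counting error only.

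The genes of this list copy and guard the genome. Origins are licensed when the origin recognition complex loads the MCM helicase, which CDC45, the GINS complex and MCM10 then help to activate, and forks stalled or broken on the way are handled by checkpoint kinases, by homologous recombination, and by the Fanconi anaemia pathway for crosslinked strands. Cleavage divisions of the early mouse embryo alternate DNA synthesis and mitosis with little growth of the cells. NR5A2 belongs to the nuclear receptors and sits on DNA as a monomer, at a receptor site extended on its 5′ side.

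Most of the 56 regions lay away from the starts of genes, and 3 of them covered 13 bases or more before the start in a RefSeq promoter window (250 bases before to 50 after a start, assembly GRCm38.p6, which is mm10). The stretches before the start that these 3 regions cover are printed 5′ to 3′ on the minus strand. They were chosen by this overlap and not by distance to a start. By midpoint, the Gins2 region, which is not printed, lies nearer to a start, that of Gm10614, than the Bard1 region does to its own. Capitals mark a match to CAAGGNCA, the core of the NR5A2 site, searched on both strands. The first lies inside Fanci at the promoter of the long non-coding RNA gene Gm31653 (chr7:79398613-79398758). The second is the Mcm10 promoter (chr2:5012846-5013041), and the third the Bard1 promoter (chr1:71103153-71103222).
Fanci region at Gm31653: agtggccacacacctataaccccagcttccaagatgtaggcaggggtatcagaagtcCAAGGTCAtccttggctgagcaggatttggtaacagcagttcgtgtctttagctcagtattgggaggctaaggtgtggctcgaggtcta
Mcm10 region at Mcm10: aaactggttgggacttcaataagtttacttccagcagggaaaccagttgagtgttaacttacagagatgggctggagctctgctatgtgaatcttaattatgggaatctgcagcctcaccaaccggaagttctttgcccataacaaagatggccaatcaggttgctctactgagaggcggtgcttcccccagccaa
Bard1 region at Bard1: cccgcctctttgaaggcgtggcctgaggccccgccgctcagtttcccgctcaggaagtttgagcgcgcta
The Fanci stretch holds 1 match, at positions 79398694 to 79398701, and the summit that the authors recentred on the Nr5a2 motif stands at 79398695. No match to these letters is in the Mcm10 stretch, where the authors' recentred summit, at 5012851, had not been moved. The Bard1 stretch also has none, and the summit of that region, at 71103668, lies outside the printed letters. CAAGGNCA is found in 6.71% of 32851 RefSeq promoter windows of the same length. The full 9-letter forms TCAAGGTCA and TCAAGGCCA, which contain it, are found in 0.423% and 0.591%, and neither is in the printed stretches. Over all regions with a recentred summit inside such a window, CAAGGNCA lay within 10 bp of the summit for 60 of 114 moved summits (52.6%) and for 2 of 113 unmoved ones (1.77%).

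Every RPKM value was a whole multiple of 1 step per column, so reads were recovered. Over all 16958 regions the columns hold 109296 reads in mz_NrKO and 99826 in mz_NrHet embryos, and 190091 in the treated and 285671 in the untreated pool. A count of 0 allows up to 1.08 RPKM in mz_NrKO and 1.76 RPKM in mz_NrHet embryos, and up to 0.510 RPKM in the treated and 0.490 RPKM in the untreated pool (3 reads each). The values were not divided by the listed length of a region, so a difference in level between regions may partly reflect the width over which reads were counted. The table as a whole was lower in the knockout columns, with a median log2 ratio of −0.32 in the maternal-zygotic and −0.35 in the inducible series on the log2(RPKM + 1) scale, which understates changes of low regions. Summed over all regions the RPKM ratio was 0.668 (95% interval 0.663 to 0.674) in the maternal-zygotic and 0.694 (0.690 to 0.698) in the inducible series. Changes at the replication and repair regions are therefore given beside this shared shift. The embryo label could not be set against marker expression. Regions at 8 of 24 granulosa and cumulus cell genes, markers of maternal cells that can adhere to an embryo, numbered 13 and averaged 4.22 RPKM in mz_NrKO and 4.38 RPKM in mz_NrHet embryos, and 2.80 RPKM in the treated and 3.28 RPKM in the untreated pool. Their medians were lower, at 1.79, 1.76, 2.04 and 2.12 RPKM in the same order. None passed the test in either series, where 1.73% and 6.37% of all regions were lower. The summed ratios of the 13 regions were 0.963 (0.742 to 1.26) in the maternal-zygotic and 0.855 (0.710 to 1.03) in the inducible series. Both intervals lie above the ratio of the whole table. The 16 genes left of that list had no region, and a part of such cells in the results was not tested.

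On the authors' scale the 56 regions at replication and repair genes were less accessible in both knockout columns, by about as much as the whole table, and with the table's summed ratio set to 1 their ratios became 0.934 in the maternal-zygotic and 1.02 in the inducible series. They averaged 2.59 RPKM in mz_NrKO against 4.14 RPKM in mz_NrHet embryos, and 2.17 RPKM in the treated against 3.08 RPKM in the untreated pool. Their summed ratio was 0.624 (95% interval 0.542 to 0.719) in the maternal-zygotic series and 0.705 (0.640 to 0.776) in the inducible series. Both intervals include the ratio of the whole table. The median log2 ratio of the 56 regions was −0.46 in the maternal-zygotic and −0.43 in the inducible series.

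**Figure D1:**
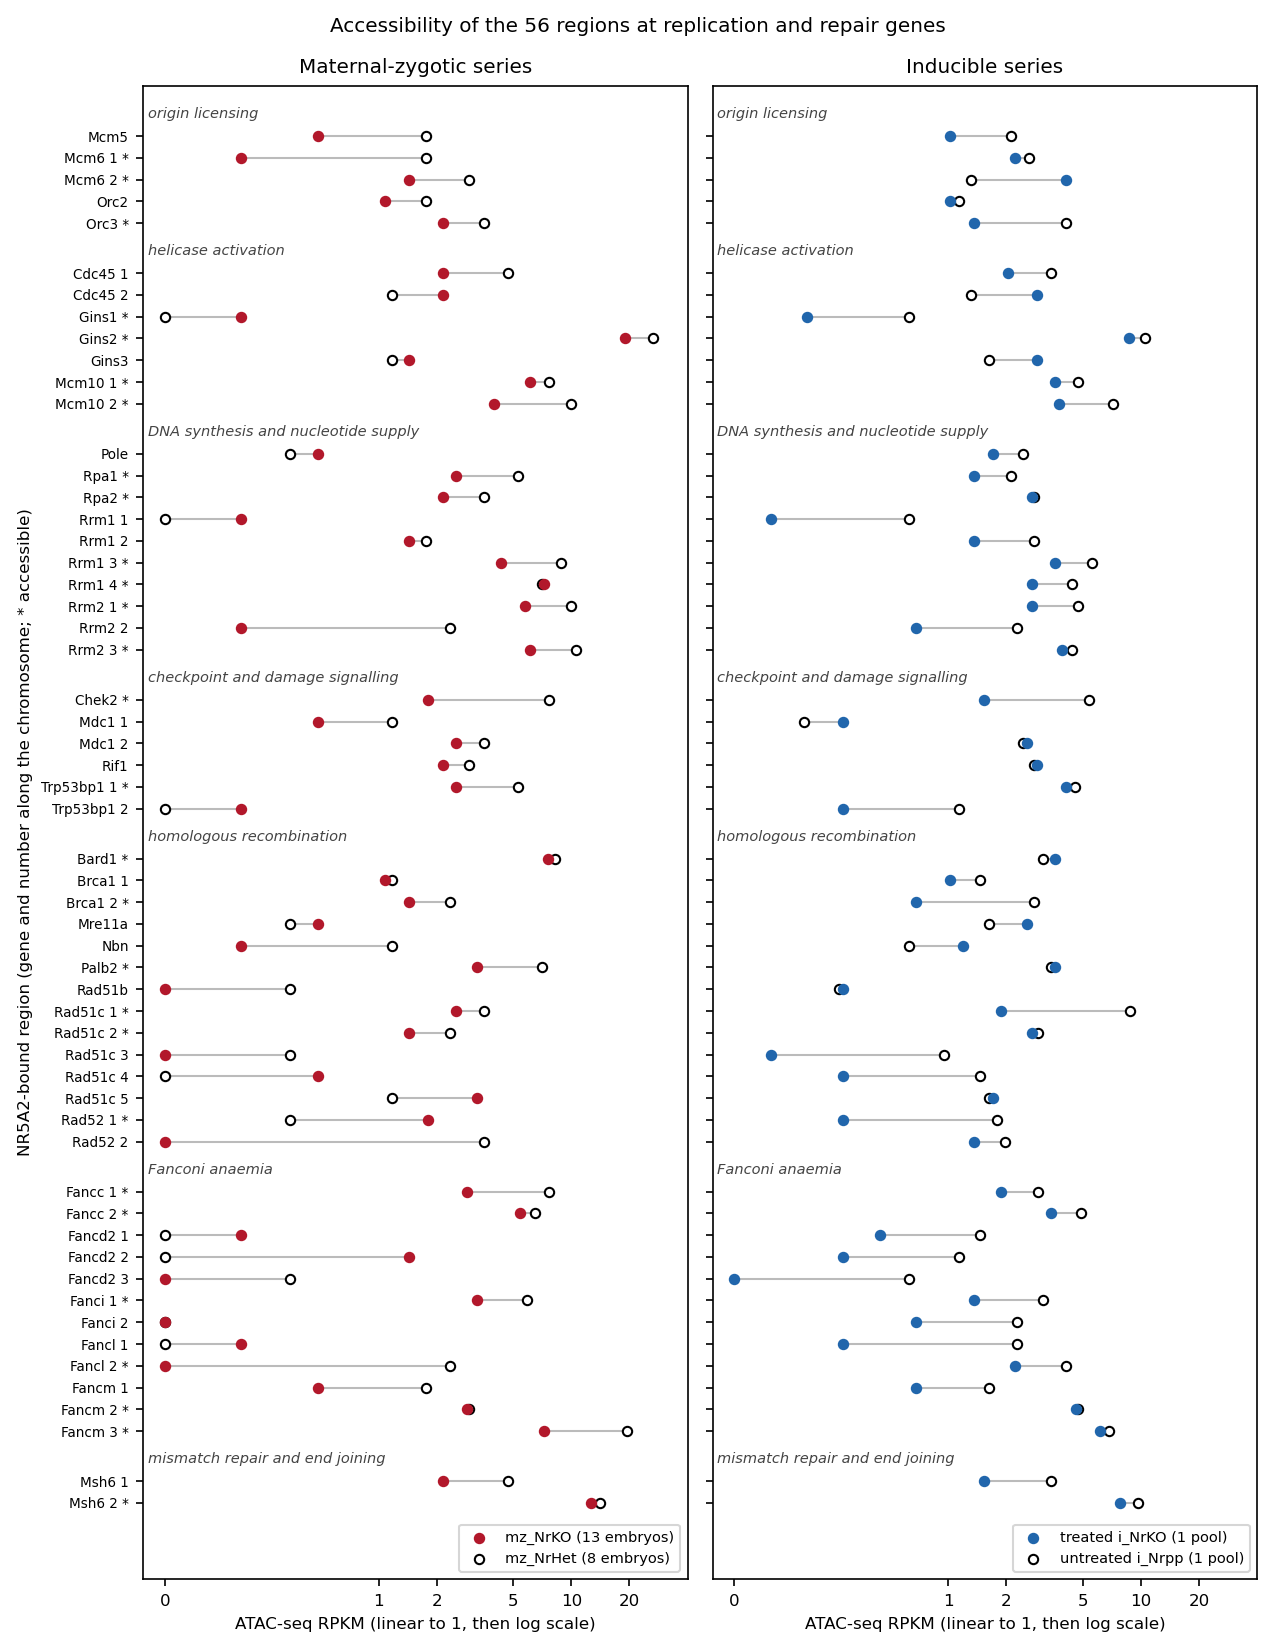
ATAC-seq RPKM (linear to 1, then a log scale) of each of the 56 regions, grouped by the role of the gene and numbered along the chromosome where a gene has several. Filled points are mz_NrKO embryos (left) and the treated pool (right), open points mz_NrHet embryos and the untreated pool, and an asterisk marks regions that the authors class as accessible. Filled points lie left of open ones for 41 of 56 regions in the maternal-zygotic series (64.3% of the whole table) and 44 of 56 in the inducible series (74.4%), and the Gins2, Msh6 and Fancm regions have the highest values.

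In single regions the calls were few. Reads of each region were compared by an exact binomial test (two-sided, Benjamini-Hochberg adjustment across the 16958 regions, threshold 0.05), and 1 of the 56 regions was lower in mz_NrKO embryos (against 1.73% of all regions), and it lay inside Fancm. None was higher, where 0.0236% of all regions were. At an unadjusted p under 0.05, 6 were lower and 0 higher, where 11.9% and 0.708% of all regions were. In the inducible series 2 of 56 were lower in the treated pool, at Chek2 and Rad51c, against 6.37% of all regions, and none was higher, against 0.0767%. Without adjustment 7 were lower, against 19.7% of all regions, and 1, at Mcm6, was higher, against 0.879%. After a scaling that set the median log2 ratio of the table to 0, the Fancm and Chek2 calls were lost and Rad51c stayed. With that scaling 0.307% of all regions were lower in the maternal-zygotic series and 1.17% in the inducible series. The Mcm6 region passed as higher in the treated pool under that scaling, where 0.13% of all regions did. With the summed ratio of the table set to 1, none of the 56 passed in the maternal-zygotic series, where 0.0826% of all regions were lower and 0.0767% higher. Under the same setting Rad51c stayed lower in the treated pool, against 0.46% of all regions, and Mcm6 was higher, against 0.218%. The counts have to be read against the depth. Even at 0 knockout reads, 19 of the 56 regions in the maternal-zygotic and 41 in the inducible series had enough control reads to pass.

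By size of the ratio alone, with no test, 30 of the 56 regions were under 2/3 in the maternal-zygotic series, where 49.2% of all regions were, and 29 in the inducible series, against 48.6%. Ratios over 1.5 were found for 10 regions in the maternal-zygotic series, against 20.3% of all, and for 5 in the inducible series, against 8.57%. Of the 10, 7 had 0 reads in the mz_NrHet column and at most 1.43 RPKM in mz_NrKO embryos, so their ratios rest on 1 to 4 reads. The authors' own class of change, which follows the mean of both ratios, put 23 of the 56 regions in the class Down, against 41.5% of all regions, 22 in Unchanged and 11 in Up, against 16.9%. Each of these shares is near that of the whole table. Lower values in both series were found for 33 of the 56 regions (58.9%, against 50.5% of all regions), and higher values in both for 4 (7.14%, against 9.98%), at Cdc45, Gins3, Mre11a and Rad51c, which were picked for this after their values were seen.

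Origin licensing genes had 5 regions at 4 of 13 genes. Together they averaged 1.15 RPKM in mz_NrKO and 2.35 RPKM in mz_NrHet embryos, a summed ratio of 0.488 (0.237 to 0.992), and 1.94 RPKM in the treated and 2.25 RPKM in the untreated pool, a ratio of 0.861 (0.596 to 1.24). Mcm5 and Mcm6 encode subunits of the replicative helicase, and Orc2 and Orc3 subunits of the origin recognition complex. The Mcm6 region 1.54 kb before the start of the gene (chr1:128361157-128361337), named after its values were seen, had 1.43 RPKM in mz_NrKO and 2.94 RPKM in mz_NrHet embryos, and 4.08 RPKM in the treated and 1.31 RPKM in the untreated pool. It was the only one of the 5 with a higher value in the treated pool. The inducible ratio of 3.13 (1.36 to 8.05) rests on 24 treated and 8 untreated reads and missed the threshold (adjusted p = 0.0576, exact binomial test). It passed with the median scaling (adjusted p = 0.0310), with the summed ratio set to 1 (adjusted p = 0.0269) and with regions under 10 reads left out (adjusted p = 0.0498, exact binomial tests), a setting in which 0.103% of all regions were higher. The maternal-zygotic ratio of the same region was 0.488 (0.0969 to 2.27). The other Mcm6 region, inside the gene, had 0.359 RPKM in mz_NrKO and 1.76 RPKM in mz_NrHet embryos, and 2.21 RPKM in the treated and 2.61 RPKM in the untreated pool. Inside Orc3, accessibility was 2.15 RPKM in mz_NrKO and 3.52 RPKM in mz_NrHet embryos, and 1.36 RPKM in the treated and 4.08 RPKM in the untreated pool, an inducible ratio of 0.334 that missed the threshold (adjusted p = 0.0623, exact binomial test). The Mcm5 and Orc2 regions stayed at or under 2.12 RPKM in every column.

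All 5 helicase activation genes had a region, 7 in total. Their summed ratio was 0.688 (0.510 to 0.929) in the maternal-zygotic and 0.818 (0.652 to 1.02) in the inducible series. The region 0.288 kb outside Gins2, a subunit gene of the GINS complex (chr8:120589248-120589477), was the most accessible of the 56. It lies 0.186 kb past the start of the long non-coding RNA gene Gm10614. It had 19.0 RPKM in mz_NrKO and 26.4 RPKM in mz_NrHet embryos, and 8.68 RPKM in the treated and 10.4 RPKM in the untreated pool. Neither ratio, 0.719 (0.474 to 1.09) in the maternal-zygotic and 0.831 (0.564 to 1.22) in the inducible series, passed the test, and its CUT&RUN signal of 3.02 RPKM was at percentile 29.5 of all regions. Mcm10, which acts in firing the loaded helicase, had a region over its promoter and one 2.07 kb before its start. The promoter region (chr2:5012846-5013069), whose sequence without a CAAGGNCA match is printed above, had 6.10 RPKM in mz_NrKO and 7.64 RPKM in mz_NrHet embryos, and 3.57 RPKM in the treated and 4.73 RPKM in the untreated pool. The farther region (chr2:5014736-5014992), with a CUT&RUN signal of 14.3 RPKM (percentile 98.4), had 3.95 RPKM in mz_NrKO and 9.99 RPKM in mz_NrHet embryos, and 3.74 RPKM in the treated and 7.18 RPKM in the untreated pool. Its ratios were 0.395 (0.167 to 0.894) and 0.521 (0.298 to 0.889), lower in both series than the promoter's 0.798 (0.365 to 1.79) and 0.755 (0.409 to 1.37), with intervals that overlap. Neither Mcm10 region passed the test (adjusted p = 0.237 and 0.113 for the farther one, exact binomial tests). Cdc45 encodes a core subunit of the active helicase, and its stronger region (chr16:18804036-18804376) had 2.15 RPKM in mz_NrKO and 4.70 RPKM in mz_NrHet embryos, and 2.04 RPKM in the treated and 3.43 RPKM in the untreated pool. The neighbouring Cdc45 region, 2.66 kb away between midpoints, went the other way in both series without passing, with 2.15 RPKM in mz_NrKO and 1.17 RPKM in mz_NrHet embryos, and 2.89 RPKM in the treated and 1.31 RPKM in the untreated pool. Gins1 and Gins3, each with 1 region inside the gene, stayed at or under 2.89 RPKM in every column.

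Genes of DNA synthesis and nucleotide supply had 10 regions at 5 of 8 genes, and all 10 had a lower value in the treated than in the untreated pool, as did 74.4% of all regions. Their summed ratio was 0.653 (0.517 to 0.821) in the inducible and 0.618 (0.452 to 0.844) in the maternal-zygotic series. No region of this group passed the test. Rrm1 and Rrm2, the large and small subunits of ribonucleotide reductase, which makes deoxynucleotides, held 7 of the 10. The strongest Rrm1 region by the mean of the 4 columns (chr7:102470078-102470918, 0.727 kb past the end of the gene) had 4.30 RPKM in mz_NrKO and 8.81 RPKM in mz_NrHet embryos, and 3.57 RPKM in the treated and 5.55 RPKM in the untreated pool. Its neighbour, 667 bp away between midpoints and near enough to share reads, had 7.17 RPKM in mz_NrKO and 7.05 RPKM in mz_NrHet embryos, and 2.72 RPKM in the treated and 4.41 RPKM in the untreated pool. The maternal-zygotic values of the pair thus differed in ratio, 0.488 (0.209 to 1.12) against 1.02, while the inducible ratios were 0.644 and 0.618. Over its 3 regions Rrm2 had a summed ratio of 0.532 (0.326 to 0.865) in the maternal-zygotic and 0.655 (0.439 to 0.969) in the inducible series. Inside Rrm2 (chr12:24712472-24712655) accessibility was 5.74 RPKM in mz_NrKO and 9.99 RPKM in mz_NrHet embryos, and 2.72 RPKM in the treated and 4.73 RPKM in the untreated pool, a ratio of 0.575 in both series. The region 36.7 kb from Rrm2 (chr12:24750645-24751078) had 6.10 RPKM in mz_NrKO and 10.6 RPKM in mz_NrHet embryos, and 3.91 RPKM in the treated and 4.41 RPKM in the untreated pool. At both of these Rrm2 regions the knockout columns were the lower ones, and no ratio passed the test. Rpa1, a subunit of the protein that coats single-stranded DNA, had a region 13.1 kb outside the gene (chr11:75286912-75287460) with 2.51 RPKM in mz_NrKO and 5.29 RPKM in mz_NrHet embryos, and 1.36 RPKM in the treated and 2.12 RPKM in the untreated pool. Neither its ratios, 0.475 and 0.642, nor those of the Rpa2 region, 0.611 and 0.981, passed the test. The region inside Pole, the catalytic subunit gene of polymerase epsilon, had at most 2.45 RPKM in any column.

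Checkpoint and damage signalling genes had 6 regions at 4 of 9 genes, with a summed ratio of 0.488 (0.286 to 0.826) in the maternal-zygotic and 0.726 (0.528 to 0.992) in the inducible series. Chek2, which encodes a checkpoint kinase acting downstream of ATM, had 1 region, inside the gene and 5.03 kb from its start (chr5:110844662-110845363). It had 1.79 RPKM in mz_NrKO and 7.64 RPKM in mz_NrHet embryos, and 1.53 RPKM in the treated and 5.39 RPKM in the untreated pool. Both knockout columns were thus low and both comparison columns high, on 5 against 13 reads in the maternal-zygotic and 9 against 33 reads in the inducible series. All 6 regions of the group held 28 against 35 reads in the maternal-zygotic and 71 against 102 reads in the inducible series. The summed ratios of the group thus rest in good part on Chek2. The inducible ratio of 0.284 (0.120 to 0.607) passed the test (adjusted p = 0.0128, exact binomial test), but not with the columns scaled to the median (adjusted p = 0.130) or to the sum (adjusted p = 0.265, exact binomial tests). The maternal-zygotic ratio of 0.235 (0.0655 to 0.702) did not pass (adjusted p = 0.139, exact binomial test). Trp53bp1, which encodes a protein that limits the resection of broken ends, had its stronger region inside the gene (chr2:121219900-121220413), with 2.51 RPKM in mz_NrKO and 5.29 RPKM in mz_NrHet embryos, and 4.08 RPKM in the treated and 4.57 RPKM in the untreated pool. Neither its maternal-zygotic ratio of 0.475 (0.150 to 1.43) nor its inducible ratio of 0.894 (0.496 to 1.60) passed. Mdc1, an adaptor at marked breaks, and Rif1, a regulator of replication timing and end choice, had 3 regions with ratios from 0.611 to 0.733 in the maternal-zygotic and from 1.04 to 1.56 in the inducible series. All 3 were lower in mz_NrKO embryos and higher in the treated pool in value, and none passed the test in either series.

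Homologous recombination genes held the most regions, 14 at 8 of 12 genes. Their summed ratio was 0.730 (0.505 to 1.06) in the maternal-zygotic and 0.664 (0.529 to 0.832) in the inducible series. Rad51c, which acts in the repair of broken strands from an intact copy, had 5 regions, the most of any gene of the list, all inside the gene and between 5.76 and 26.7 kb from its start. The first of them along the chromosome (chr11:87377697-87377958, 26.7 kb from the start) carried a CUT&RUN signal of 16.4 RPKM, at percentile 99.2 of all regions. It had 2.51 RPKM in mz_NrKO and 3.52 RPKM in mz_NrHet embryos, and 1.87 RPKM in the treated and 8.81 RPKM in the untreated pool. The untreated pool was the high column, with 54 reads against 11 in the treated pool. Its inducible ratio of 0.212 (0.100 to 0.411) passed the test (adjusted p = 0.000106, exact binomial test) and also did so with both scalings, while the maternal-zygotic ratio was 0.712 (0.205 to 2.57, on 7 against 6 reads). The difference between the series did not pass an exact test on the 4 columns. The other Rad51c regions ranged from 0 to 3.23 RPKM in mz_NrKO and from 0 to 2.35 RPKM in mz_NrHet embryos, and from 0.170 to 2.72 RPKM in the treated and from 0.979 to 2.94 RPKM in the untreated pool. Summed over the 5, the gene had a ratio of 0.441 (0.298 to 0.641) in the inducible and 1.03 (0.498 to 2.23) in the maternal-zygotic series, and without Rad51c the summed inducible ratio of the whole list was 0.732 against 0.705 with it.

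Bard1 and Brca1 encode partners in a ubiquitin ligase, and Palb2 joins BRCA1 to BRCA2. The Bard1 region (chr1:71103153-71103982), which covers the promoter stretch printed above, had 7.53 RPKM in mz_NrKO and 8.22 RPKM in mz_NrHet embryos, and 3.57 RPKM in the treated and 3.10 RPKM in the untreated pool. Its ratios of 0.916 (0.444 to 1.95) and 1.15 (0.590 to 2.27) lay near 1 in both series. The Palb2 region, inside the gene (chr7:122116363-122116603), had 3.23 RPKM in mz_NrKO and 7.05 RPKM in mz_NrHet embryos, and 3.57 RPKM in the treated and 3.43 RPKM in the untreated pool. The pools were thus nearly equal, and the maternal-zygotic ratio of 0.458 (0.170 to 1.18) did not pass the test. Its CUT&RUN signal of 1.44 RPKM, at percentile 4.12 of all regions, was the weakest of the 56. Brca1 had a region inside the gene with 1.43 RPKM in mz_NrKO and 2.35 RPKM in mz_NrHet embryos, and 0.851 RPKM in the treated and 2.77 RPKM in the untreated pool, an inducible ratio of 0.307 (adjusted p = 0.133, exact binomial test). Near Rad52, a strand annealing protein gene, the region 5.03 kb before the start had 0 reads in mz_NrKO embryos, which allows up to 1.08 RPKM, against 3.52 RPKM in mz_NrHet embryos, and 1.36 RPKM in the treated and 1.96 RPKM in the untreated pool. It did not pass in the maternal-zygotic series (adjusted p = 0.0983, exact binomial test). Mre11a and Nbn, which encode subunits of a break-sensing complex, and Rad51b, which also acts in this repair, had 1 region each, none above 2.55 RPKM in any column.

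Fanconi anaemia genes had 12 regions at 5 of 6 genes, 11 of them inside the gene. All 12 were lower in value in the treated than in the untreated pool, as were 74.4% of all regions. The summed ratio was 0.634 (0.508 to 0.789) in the inducible and 0.519 (0.370 to 0.726) in the maternal-zygotic series. Fancm, which encodes a DNA translocase that anchors the pathway's core complex at damaged forks, had the only call in the maternal-zygotic series, at the last of its regions along the chromosome, 39.7 kb from the start (chr12:65115237-65115429). This region had 7.17 RPKM in mz_NrKO and 19.4 RPKM in mz_NrHet embryos, and 6.13 RPKM in the treated and 6.86 RPKM in the untreated pool. The mz_NrHet column stood above the other 3, with 33 reads against 20 in mz_NrKO embryos. The maternal-zygotic ratio of 0.370 (0.201 to 0.664) passed the test (adjusted p = 0.0383, exact binomial test) but not with the columns scaled to the median (adjusted p = 0.299) or to the sum (adjusted p = 0.662, exact binomial tests). The inducible ratio was 0.894 (0.556 to 1.43). In the test of the difference between the series the Fancm region had an unadjusted p of 0.0189 and an adjusted p of 1 (exact noncentral hypergeometric test). The Fancm region 11.4 kb from the start had 2.87 RPKM in mz_NrKO and 2.94 RPKM in mz_NrHet embryos, and 4.59 RPKM in the treated and 4.73 RPKM in the untreated pool.

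Fancc belongs to the core complex, Fancl is its ubiquitin ligase, and FANCD2 and FANCI are the pair it modifies. The region inside Fancc (chr13:63353278-63353589) had 2.87 RPKM in mz_NrKO and 7.64 RPKM in mz_NrHet embryos, and 1.87 RPKM in the treated and 2.94 RPKM in the untreated pool. The region 2.44 kb outside Fancc (chr13:63499303-63500153) had 5.38 RPKM in mz_NrKO and 6.46 RPKM in mz_NrHet embryos, and 3.40 RPKM in the treated and 4.90 RPKM in the untreated pool. All 4 ratios of Fancc were under 1, from 0.376 to 0.833, and none passed. The Fanci region with the printed CAAGGTCA match (chr7:79398533-79398758) had 3.23 RPKM in mz_NrKO and 5.87 RPKM in mz_NrHet embryos, and 1.36 RPKM in the treated and 3.10 RPKM in the untreated pool. Its ratios were 0.549 (0.198 to 1.50) and 0.439 (0.166 to 1.05), and its CUT&RUN signal was 8.46 RPKM (percentile 89.1). The second Fancl region had 0 reads in mz_NrKO embryos, which allows up to 1.08 RPKM, against 2.35 RPKM in mz_NrHet embryos, and 2.21 RPKM in the treated and 4.08 RPKM in the untreated pool. The 3 Fancd2 regions stayed at or under 1.47 RPKM in every column.

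Mismatch repair and end joining had regions at Msh6 only, which encodes a mismatch recognition protein. The region 1.71 kb before its start (chr17:87973153-87973533), the second most accessible of the 56, had 12.6 RPKM in mz_NrKO and 14.1 RPKM in mz_NrHet embryos, and 7.83 RPKM in the treated and 9.63 RPKM in the untreated pool. Neither ratio, 0.890 (0.515 to 1.56) in the maternal-zygotic and 0.813 (0.541 to 1.22) in the inducible series, passed the test. The Msh6 region 33.6 kb before the start had 2.15 RPKM in mz_NrKO and 4.70 RPKM in mz_NrHet embryos, and 1.53 RPKM in the treated and 3.43 RPKM in the untreated pool, ratios of 0.458 and 0.447 that did not pass either.

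**Figure D2:**
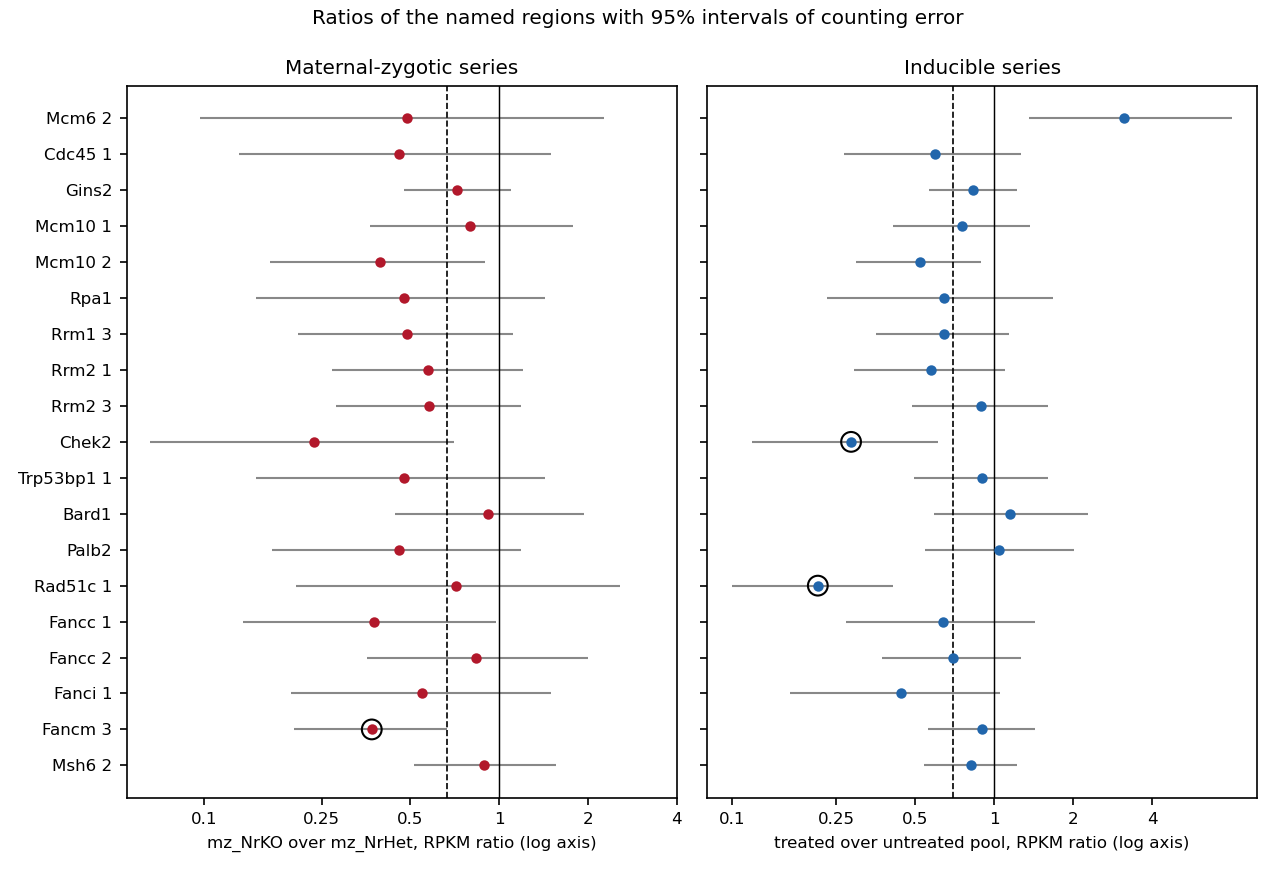
RPKM ratio (log axis) of the 19 regions given with coordinates, as mz_NrKO over mz_NrHet embryos (left) and treated over untreated pool (right), with 95% intervals that cover counting error only. Circles mark ratios past the exact binomial test, the solid line marks 1 and the dashed line the summed ratio of all 16958 regions, and the intervals include the dashed line except for Fancm in the maternal-zygotic series (0.201 to 0.664) and, in the inducible series, Chek2 (0.120 to 0.607) and Rad51c (0.100 to 0.411) below it and Mcm6 (1.36 to 8.05) above it.

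Across the list, accessible regions were set side by side by their place inside or outside the gene. This split was not among the planned sums, which were by list, role and gene. The 15 accessible regions inside a gene averaged 2.51 RPKM in mz_NrKO and 5.44 RPKM in mz_NrHet embryos, and 2.50 RPKM in the treated and 4.12 RPKM in the untreated pool. Their summed ratios were 0.461 (0.354 to 0.599) and 0.605 (0.510 to 0.716). The 13 accessible regions outside averaged 6.15 RPKM in mz_NrKO and 8.59 RPKM in mz_NrHet embryos, and 3.82 RPKM in the treated and 4.80 RPKM in the untreated pool, with ratios of 0.717 (0.588 to 0.874) and 0.797 (0.682 to 0.931). Without the Fancm region that passed the test, an alternative added after the data were seen, the inside ratios were 0.490 and 0.569. The Chek2 and Rad51c regions called in the inducible series are also among the 15 and were kept. They held 9 and 11 of the 220 treated reads and 33 and 54 of the 379 untreated reads. The inducible inside ratio thus rests in part on these called regions, and it was not computed without them. Over all accessible regions of the table the same split gave 0.646 inside and 0.661 outside within 50 kb in the maternal-zygotic series, and 0.685 and 0.710 in the inducible series. The intervals of the accessible split at replication and repair genes overlap slightly, and the difference between inside and outside was not tested. Over all 36 regions inside and all 20 outside, the maternal-zygotic ratios were 0.559 and 0.678. The inducible ones were 0.632 and 0.796. Accessible regions held 105 of 162 mz_NrKO and 139 of 177 mz_NrHet reads inside genes. Outside, they held 223 of 242 and 190 of 218. In the maternal-zygotic series the regions that are not accessible thus had the lower ratio outside, on few reads. Outside regions include the most accessible ones, at Gins2 and Msh6, with ratios above that of the table.

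**Figure D3:**
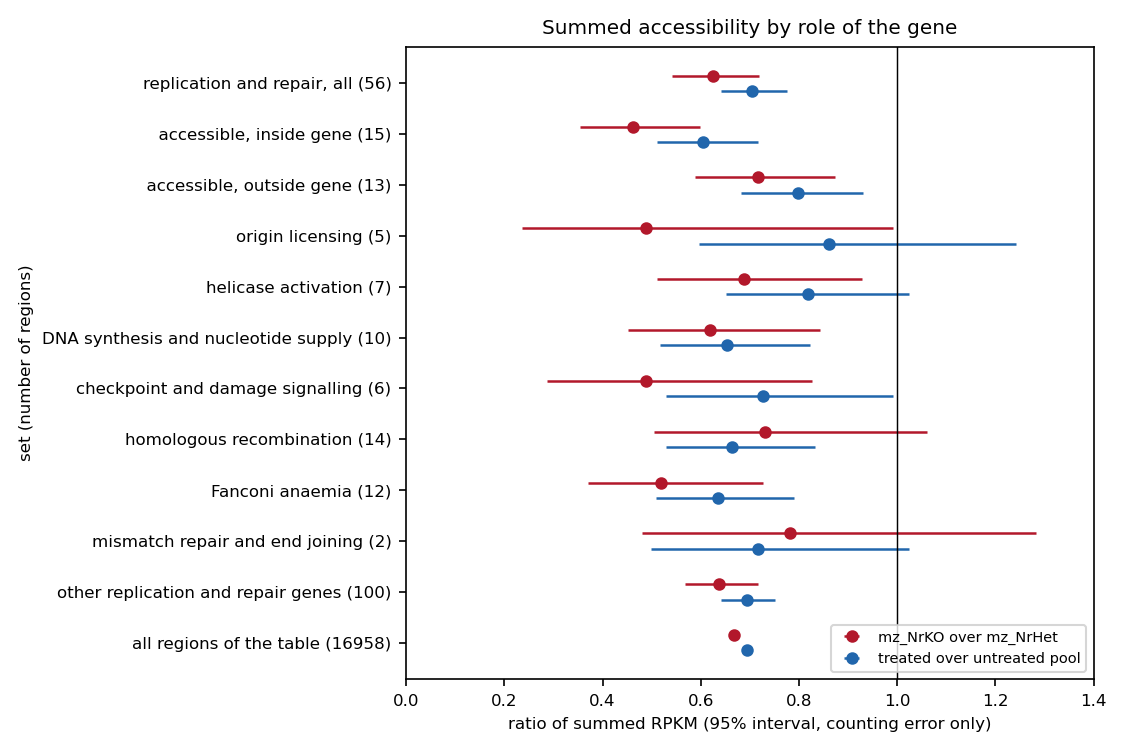
Ratio of summed RPKM with its 95% interval (counting error only) for the 56 regions, for accessible ones inside or outside their gene, for each role, for the regions of other replication and repair genes and for the whole table, with the number of regions in brackets. Red points are mz_NrKO over mz_NrHet embryos and blue points the treated over the untreated pool, and every point lies left of 1, with the accessible regions inside genes lowest in the maternal-zygotic series at 0.461.

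The series were then set side by side, which share no samples. Across the 56 regions the log2 ratios of the series had a Pearson r of 0.10 and a Spearman rho of 0.10, against 0.22 and 0.21 over all 16958 regions, as a description in which regions within a series share their libraries and depth. The levels themselves were alike, with an r of 0.82 between mz_NrHet embryos and the untreated pool over the 56 regions. When the ratios of both series were compared by an exact test, none of the 56 regions passed after adjustment, where 0.0177% of all regions did. Without adjustment 3 had a p under 0.05, where 4.41% of all regions did, the Fancm region above, the Mcm6 region before its start (p = 0.0218) and the Rad52 region with 0 mz_NrKO reads (p = 0.0471, exact noncentral hypergeometric tests). A region called in only one series is therefore not shown to differ between them.

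**Figure D4:**
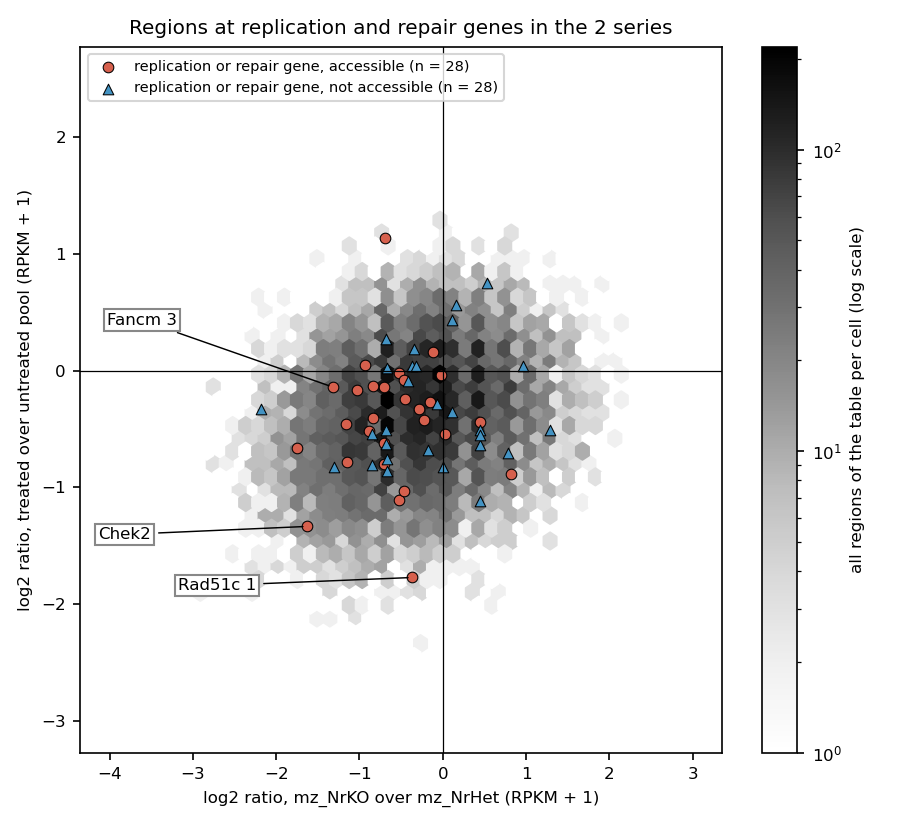
Log2 ratio of RPKM + 1 in the maternal-zygotic series (x axis) and the inducible series (y axis) for the 56 regions, accessible ones as circles and the others as triangles, over the density of all 16958 regions in grey on a log scale. Of the 56, 33 lie below 0 on both axes, and the called regions at Fancm, Chek2 and Rad51c are named.

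The regions were also described by features other than accessibility ratios. The authors class 28 of the 56 regions as accessible (48.5% of all), and had moved the summit onto a motif for 51 (91.1%, against 89.3%). The median CUT&RUN signal was 5.42 RPKM, against 4.15 RPKM over all regions, and 36 regions lay inside their gene (64.3%, against 8636 of all 15420 regions that lie within 50 kb of a gene). The 28 regions that are not accessible averaged 0.973 RPKM in mz_NrKO and 1.38 RPKM in mz_NrHet embryos, and 1.23 RPKM in the treated and 1.72 RPKM in the untreated pool, so most stand near the limit that 3 reads set in the maternal-zygotic columns. The 5 regions with an unmoved summit, at Gins2, Msh6, Palb2, Rad52 and the Mcm10 promoter, had summed ratios of 0.765 (0.579 to 1.01) and 0.805 (0.642 to 1.01), and the 51 with a moved summit 0.580 (0.491 to 0.684) and 0.684 (0.614 to 0.761). Gins2 and Msh6 held 53 and 35 of the 119 mz_NrKO reads and 45 and 24 of the 95 mz_NrHet reads of the unmoved set. The difference was not tested, and the same split over all regions was not computed. CUT&RUN signal and log2 ratio had a Pearson r of −0.15 in the maternal-zygotic and −0.14 in the inducible series over the 56 regions, weak values given as a description. The Spearman rho was −0.21 in the maternal-zygotic and 0.0084 in the inducible series, so the inducible relation was absent on ranks. Over all regions the Pearson r was −0.14 and −0.19, and the Spearman rho −0.16 and −0.21.

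Other genes of the same pathways, a further list of 79, had 100 regions at 45 genes. Their summed ratios of 0.638 (0.567 to 0.717) in the maternal-zygotic and 0.694 (0.642 to 0.751) in the inducible series were close to those of the 56 regions. In the maternal-zygotic series 1 of the 100 passed the test as lower, against 1.73% of all regions. It lay inside Blm, the gene of a helicase that resolves recombination intermediates, with 3.23 RPKM in mz_NrKO and 12.9 RPKM in mz_NrHet embryos (adjusted p = 0.0269, exact binomial test). Of the 100, 4 passed in the inducible series, all lower, against 6.37% of all regions. The region inside Parp1, a break sensor gene, had 0.851 RPKM in the treated and 3.92 RPKM in the untreated pool. Inside Pold3, a polymerase delta subunit gene, the treated pool had 2.38 RPKM and the untreated pool 6.20 RPKM. A region inside Rbbp8, a resection factor gene, had 1.19 RPKM in the treated and 4.90 RPKM in the untreated pool, and one near Slx4, a nuclease scaffold gene, 1.19 RPKM in the treated and 5.06 RPKM in the untreated pool. None of these 5 calls was kept with the columns scaled to the median, where 0.307% of all regions were lower in the maternal-zygotic and 1.17% in the inducible series.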

How the data were processed

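ATAC-seq libraries of 13 mz_NrKO and 8 mz_NrHet single embryos, 1 tamoxifen-treated pool and 1 untreated pool took their groups from the labels. The tools cutadapt, Bowtie2, MACS2 and mm10 are named per the submitters' processing notes, with no settings; the merging of embryos and the removal of duplicates are not given in these sources. RPKM values, 1 per group and region, were computed by the authors at NR5A2-bound regions of an earlier CUT&RUN study, per the file headers, and the deposited ratios equal (knockout + 0.01)/(control + 0.01). No value column was left unmapped (0). Summit positions and the classes of accessibility and change are also the authors'.

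Reads were recovered from the steps of 0.359 RPKM per read in mz_NrKO, 0.587 in mz_NrHet, 0.170 in the treated and 0.163 in the untreated column, from which no value deviated by more than 7.88e-08 of a step. Each region was tested with an exact binomial test (two-sided) that takes the steps into account, and the series by an exact noncentral hypergeometric test, with Benjamini-Hochberg adjustment over 16958 regions at 0.05. The scripts were checked on simulated data. Summed ratios have exact Clopper-Pearson intervals conditional on the summed reads. Both assume independent reads, which PCR copies are not. Log2 ratios use a pseudocount of 1 RPKM. Python 3.11.15, numpy 2.4.6, scipy 1.17.1, pandas 2.3.3 and matplotlib 3.10.9 were used.

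Named regions are those past the test, the strongest region of the 15 genes with the highest mean RPKM, those with both ratios under 2/3 or both over 1.5 and 10 or more reads in both control columns, and those within 1 kb of the gene's start; the Mcm6 region before its start was added after its values were seen, and further regions are given with values in their role group. Tests over embryos could not be run on merged columns. RefSeq gives gene spans and promoter windows, so exons and introns are not told apart. Members and lists were chosen with earlier results of these data known.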

Additional observations from a re-analysis of the deposited data

How the results depend on the processing

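Scaling was the choice that moved the results. With the columns scaled to a median log2 ratio of 0, 0 regions were lower in mz_NrKO embryos, against 1 on the authors' scale, and 1 was lower and 1 higher in the treated pool, against 2 and 0. Of all regions, 0.307% were then lower in the maternal-zygotic series, and 1.17% lower and 0.13% higher in the inducible series. The summed ratios of the 56 regions became 0.780 in the maternal-zygotic and 0.899 in the inducible series. The scaling divided ratios by 0.801 and 0.784, both above the summed ratios of the whole table, 0.668 and 0.694. The sums of the whole table thus also stayed under 1. Of the 56 regions, 37.5% were under 2/3 in the maternal-zygotic series, against 53.6% on the authors' scale. With the summed ratio of the table set to 1, the counts were 0 lower in the maternal-zygotic series (0.0826% of all regions) and 1 lower and 1 higher in the inducible series (0.46% and 0.218%). The summed ratios of the 56 regions were then 0.934 and 1.02, and their median log2 ratios 0.12 and 0.10. The inducible summed ratio and both medians thus changed side. Under that scaling 25.0% of the regions were under 2/3 in the maternal-zygotic and 30.4% in the inducible series (51.8% on the authors' scale), and 21.4% were over 1.5 in the inducible series (8.93%). The shares of the whole table past a fold were not computed under either scaling, so these changes have no background beside them. On the authors' scale 20.3% of all regions, and 1032 of all 8228 accessible ones, had ratios over 1.5 in the maternal-zygotic series. Such ratios, 17.9% of the 56 regions, were 7.14% of the accessible ones among them and 3.85% of those with at least 10 reads. The share among all regions with at least 10 reads was not computed. That filter also made 1 region, at Mcm6, pass as higher in the treated pool. Inside genes alone the inducible summed ratio was 0.632. Of the 113 alternatives tried on single named regions, 85 kept direction and side of the threshold, 4 lost a call and 3 gained one, those given at Fancm, Chek2 and Mcm6. The other 21, none of a called ratio, put a ratio under 1 above it. With the median scaling these were, in the maternal-zygotic series, Msh6 at 1.11, Bard1 at 1.14 and the outside Fancc region at 1.04, and in the inducible series Fancm at 1.14, Gins2 at 1.06, Msh6 at 1.04, the Rrm2 region farthest from the gene at 1.13 and Trp53bp1 at 1.14. With the summed ratio set to 1 they were, in the maternal-zygotic series, Rad51c at 1.07, Gins2 at 1.08, Msh6 at 1.33, Bard1 at 1.37, Fancc at 1.25 and the Mcm10 promoter at 1.19, and in the inducible series Fancm at 1.29, Gins2 at 1.198, Msh6 at 1.17, Rrm2 at 1.28, Fancc at 1.00, Trp53bp1 at 1.29 and the Mcm10 promoter at 1.09. No paired analysis was possible because the columns hold merged groups, and leaving out single embryos was not run for the same reason. Depth limits the maternal-zygotic series most, where a region needed at least 4.70 RPKM in mz_NrHet embryos to pass even at 0 knockout reads, against 1.63 RPKM in the untreated pool.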
